A study of Mus musculus with 2 samples.

Results

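The 2670 regions described here are CTCF peaks of the newborn mouse intestine whose summits lie within introns of short protein-coding genes. They were taken from the 73465 peaks that the authors' reproducibility filter kept in its optimal list (IDR, the irreproducible discovery rate, ranks peaks by how alike they stand in replicate lists). A summit was kept on chromosomes 1 to 19 when it lay inside a protein-coding gene of 30 kb or less and inside no gene over 30 kb. It also had to lie outside all exons, more than 1 kb from every annotated transcription start site (TSS), and on a base not soft-masked as repeat. Of the 71756 optimal summits on those chromosomes 10627 fell inside such a gene, and 9946 of them were inside no longer gene. Leaving out exons kept 5738, leaving out TSS neighbourhoods kept 3864, and leaving out masked bases kept 2670, which is 3.72% of the summits on chromosomes 1 to 19.

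CTCF is a zinc-finger protein that reads a long, directional DNA motif. It halts the cohesin ring as it extrudes chromatin, so that loops form mostly between sites whose motifs point towards each other, and it insulates promoters from enhancers outside the loop. Within genes it is also known to bring promoters into contact with enhancers in introns and to influence elongation and splicing near exons.

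The binding was mapped by ChIP-seq with a CTCF antibody in whole intestine of strain B6NCrl mice at postnatal day 0, with no treatment, genotype contrast or other condition. There was 1 group of 2 biological replicates, both made from powdered intestines that had been pooled over several dissections, with the sex of the mice not collected. The labels give both replicates the same biosample, so the spread between them may be technical. Whole intestine mixes epithelium, smooth muscle, mesenchyme, neurons and blood cells, and a peak does not say in which of them CTCF was bound. Coordinates are on mm10, gene models are those of GENCODE M21, and peak signal is the authors' own enrichment value, used within a list. Read depth is not known from these files, and intervals below are 95% exact intervals (Clopper-Pearson for shares, Poisson for densities) that cover counting of peaks only and take peaks as independent, which neighbours are not.

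The strongest of these peaks carried close matches to the CTCF motif. The sites in 10 of the 12 strongest follow, since they show what the bound sequence looks like inside a short gene. Each is written 5′ to 3′ on the strand of its motif, with the 19 bases that best matched the CTCF matrix in capitals and 5 bases on either side, and with its mm10 position.
Pink1 (chr4:138319710-138319738, plus strand): aaggcTTACCACTAGGTGGCGCTAcaccc
Fgd2 (chr17:29371201-29371229, minus strand): agcaaTGTCCAGCAGAGGGTGCTAtgggg
Cpsf4l (chr11:113703900-113703928, plus strand): gatctTGGCCAGCAGGTGGCAGCAacact
Hpca (chr4:129113174-129113202, plus strand): ctcggTAACCGACAGGGGGCGCTGagctg
Sec1 (chr7:45682914-45682942, minus strand): tggaaCAGCCTCCAGAGGGCGCTCtcggc
Gcat (chr15:79039094-79039122, minus strand): ccactGTGCCGCTGGGTGGCAGTCtagcg
Rrp15 (chr1:186722133-186722161, minus strand): cacgaCTGCCACACGGTGGTGCTGttgtt
Tfap4 (chr16:4551200-4551228, plus strand): cacacTGGCCAGCAGAGGGCACTGcttca
Scd2 (chr19:44295937-44295965, minus strand): catgcGTGTCGCTAGGGGGCAGCActacc
Adcy4 (chr14:55781389-55781417, minus strand): tacctTTGTCAGAAGAGGGCACTAtagcc
All of the 12 had a motif, and GG stood at positions 13 and 14 of all 12, counted from 1 at the first capital. AG stood at positions 9 and 10 of 10 of them and CC at positions 4 and 5 of 9. The call favours such bases, since each site is the best match to the matrix. Over the sites of all members, G stood at position 13 in 98.8% and at position 14 in 90.1%. A stood at position 9 in 90.2% and G at position 10 in 99.4%, and C at position 4 in 82.4% and at position 5 in 98.5%. Of all members in the strongest decile of the optimal list 98.5% had a motif. Of the 12 motifs 8 pointed against the direction of transcription of the host and 4, among them those in Sec1, Rrp15 and Adcy4, pointed along it.

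Some strong peaks had no sequence near the summit that reached the motif threshold. The 3 strongest of them are shown as the 100 bases around the summit, on the plus strand. The search reached 100 bases to either side of the summit, so only the middle of the searched sequence is printed.
Zfr2 (chr10:81244747-81244846, plus strand): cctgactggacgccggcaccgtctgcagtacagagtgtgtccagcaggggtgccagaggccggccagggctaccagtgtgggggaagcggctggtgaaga
Tex264 (chr9:106675614-106675713, plus strand): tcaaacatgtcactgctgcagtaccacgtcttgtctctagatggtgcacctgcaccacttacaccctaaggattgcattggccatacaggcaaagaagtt
Pttg1ip (chr10:77590974-77591073, plus strand): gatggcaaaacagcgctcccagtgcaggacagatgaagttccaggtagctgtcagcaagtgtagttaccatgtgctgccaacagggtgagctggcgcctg
The Zfr2 peak, in an intron of a zinc finger RNA-binding protein gene, had a signal of 521, with 258 in replicate 1 and 263 in replicate 2. The Tex264 peak, in the gene of a receptor for the autophagy of endoplasmic reticulum, had a signal of 504, with 238 and 270 in the replicates. The Pttg1ip peak had a signal of 463, with 232 and 231. The best scores within 100 bases of their summits were 7.86, 8.94 and 10.1, against thresholds of 11.1 to 11.2 on the log-odds scale of the matrix, so weaker matches were present below the threshold.

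The hosts of the strongest peaks have varied functions. Pink1, a kinase that marks damaged mitochondria for removal, held the strongest, with a signal of 663 in intron 3 of 7 (331 in replicate 1 and 336 in replicate 2). Fgd2, an exchange factor for a small GTPase, held a peak of 650 in intron 9 of 15 (326 and 326). Lmtk3, a kinase gene, held a peak of 644 in its last intron (325 and 323). The replicates gave these peaks nearly equal values.

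Cpsf4l held a peak of signal 632, which differed more between replicates (297 and 341). Hpca, a neuronal calcium sensor, had a peak of signal 629, and Sec1, a fucosyltransferase, one of 603. Gcat, an enzyme of threonine breakdown, reached 602, and Rrp15, a factor of ribosomal RNA processing, reached 598. Tfap4, a helix-loop-helix transcription factor, had 597 with its summit 1 base from an exon edge, Scd2, a stearoyl-CoA desaturase, had 592, and Adcy4, an adenylate cyclase, had 591. The 12 stood between ranks 49 and 244 of the optimal list, and their values ran from 288 to 334 in replicate 1 and from 298 to 341 in replicate 2. Of the 12 peaks 1 lay in a first intron.

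Peaks of short-gene introns were stronger than those of long-gene introns. Their signal had a median of 112, with quartiles of 39.3 and 297 and a range of 4.65 to 663. Under the same filters the 5925 peaks in introns of genes of 30 to 100 kb had a median of 96.3, and the 10487 in introns of genes over 100 kb had one of 77.8. The 17833 intergenic peaks had a higher median, 125, so the short-gene introns stood between long-gene introns and intergenic sequence. Of the members 58.3% were above the median of the whole optimal list. The strongest decile of the list held 15.1% of the members and 8.99% of the long-gene intronic peaks.

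Both replicates showed the same order. In replicate 1 the matched peaks had medians of 55.0 in short-gene introns and 39.0 in long-gene introns, a ratio of 1.41. In replicate 2 the medians were 59.6 and 40.9, a ratio of 1.46. By chromosome the median of short-gene introns was the higher in 18 of 19. The ratio of 1.44 in the optimal list was 1.20 among peaks above the median signal and 1.26 when summits on masked bases were kept.

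Of the 2670 members 2645 had a peak of replicate 1 and 2625 one of replicate 2 with its summit within 100 bases, and 10 had neither. These shares, 99.1% and 98.3%, were near the 98.5% and 98.6% of all optimal peaks. The ranks of the 2610 peaks found in both gave a Spearman correlation of 0.975, given as a description, since both lists come from one biosample label. The optimal list was also filtered for agreement between replicate lists, which by itself favours a high value. Among the 2610, 1327 ranked higher in replicate 1. The strongest 73465 peaks of both replicates contained 2285 members (85.6%), and the share of all optimal peaks in both was not computed. Taken singly, those of replicate 1 contained 91.2% of members and 89.5% of all optimal peaks. Those of replicate 2 contained 89.9% and 89.6%, so the members were near the background. The conservative IDR list held 89.2% of the members (88.0 to 90.4), near the 87.0% of all optimal peaks.

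**Figure D1:**
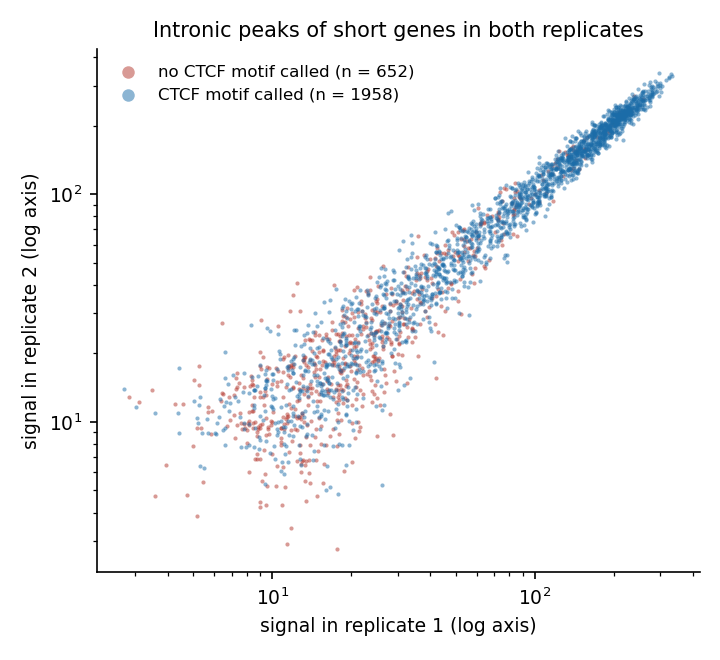
Signal of each intronic peak of a short gene in replicate 1 (x) and replicate 2 (y), both on log axes and both the authors' values, for the 2610 peaks found in both lists. Points lie along a line that narrows towards strong peaks, and peaks with no CTCF motif called (red) sit mostly at the weak end.

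Most members had a CTCF motif: 1971 of 2670, or 73.8% (72.1 to 75.5), against 72.7% of all optimal peaks. The share was thus near the background. Windows 1 kb to either side of the members reached the threshold in 6.27%. For all optimal peaks this was 4.47%, for long-gene introns 3.45% and for intergenic peaks 4.10%. The part of this background in the differences of motif share was not tested. In long-gene introns 70.0% of peaks had a motif (69.1 to 70.8) and in intergenic sequence 76.6%. The share went with signal. It rose from 35.9% of members in the weakest decile of the optimal list to 98.5% in the strongest, and in long-gene introns from 41.6% to 97.2%. In the fourth decile the members' share was 51.7% (44.7 to 58.6) and that of intergenic peaks 62.9% (60.3 to 65.4), with intervals that do not meet. The members' interval there overlapped that of long-gene introns, 59.9% (56.8 to 62.9). This decile is named because it was the only one where the intervals of members and intergenic peaks did not meet. The intervals are not adjusted for the number of deciles. In deciles 6, 8, 9 and 10 the members had the higher share, with 91.8% against 88.5% in decile 8. The motif share depended on the threshold, and it was 43.7% with one that 1% of training flanks reach.

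**Figure D2:**
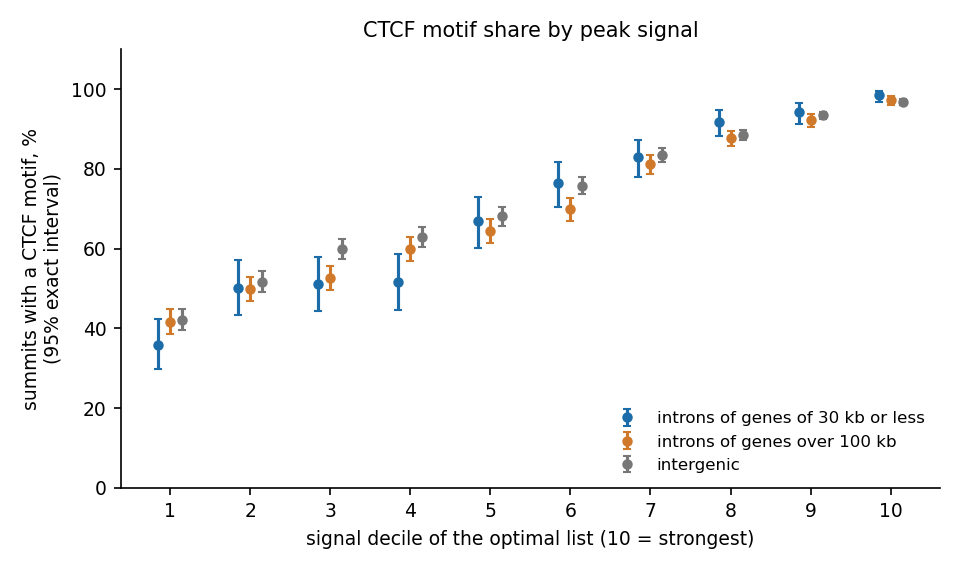
Share of summits with a CTCF motif (y, percent, with 95% exact intervals) in each decile of the optimal list by signal (x, 10 the strongest), for introns of short genes (blue), introns of genes over 100 kb (orange) and intergenic summits (grey). In short-gene introns the share runs from 35.9% to 98.5%, and the classes lie close together within most deciles.

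The motif lay close to the summit, at a median of 7 bases. Members with a motif had a median signal of 186 and those without one of 38.2, and 94.1% and 75.4% of them were in the conservative list. Across the 1971 members with a motif the matrix score and the signal had a Spearman correlation of 0.490, as a description. Of the 699 without one 152 were above the median signal, and all 152 were in the conservative list. The share of all optimal peaks above the median signal in that list was not computed, so no contrast is drawn.

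Called sites held much the same bases as elsewhere. The call itself favours this, since every site had to match the matrix above the threshold. C at position 5 stood in 98.5% of the members' sites and in 98.3% of those of long-gene introns, and G at position 10 in 99.4% and 99.6%. The members' sites more often held a CpG, the dinucleotide that can be methylated: 37.5% (35.4 to 39.7) against 32.05% (31.0 to 33.1) in long-gene introns. At position 15, where a CpG was most frequent, one began in 27.96% (26.0 to 29.99) against 23.0% (22.1 to 23.99). At position 5 one began in 5.07% (4.15 to 6.14) against 3.23% (2.84 to 3.66). Methylation was not measured. The sequence within 100 bases of members' summits was also richer in G and C, with a median of 51.2% against 48.8%, and whether this accounts for the CpG difference was not tested.

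Short-gene introns were densely occupied. Counting only bases where the rule allows a summit (52.8 Mb), they held 50.6 summits per Mb (48.7 to 52.5). Introns of genes of 30 to 100 kb held 42.1 (41.1 to 43.2), introns of genes over 100 kb held 26.7 (26.2 to 27.2) and intergenic sequence 24.4 (24.1 to 24.8). The ratio to long-gene introns was 1.90 (1.82 to 1.98) and that to intergenic sequence 2.07 (1.99 to 2.16). Short-gene introns had the higher density of both pairs on 19 of 19 chromosomes. Among chromosomes their density ran from 30.6 on chromosome 13 to 69.3 on chromosome 15.

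Much of this difference went with where short genes lie. Of the eligible bases of short-gene introns 33.8% had 6 to 10 starts of protein-coding genes within 250 kb, and 33.3% had 11 to 20. Of those of long-gene introns 58.9% had 0 to 2. At 6 to 10 gene starts short-gene introns held 45.9 summits per Mb and long-gene introns 42.1, a ratio of 1.09 (1.005 to 1.18). The ratio was 1.17 (1.04 to 1.30) at 3 to 5, 1.20 (1.07 to 1.36) at 11 to 20 and 1.17 (0.919 to 1.52) above 20. Among peaks above the median signal the ratios were higher, with 1.39 (1.20 to 1.61) at 3 to 5, 1.22 (1.09 to 1.36) at 6 to 10 and 1.46 (1.22 to 1.74) at 11 to 20. With the distance to a TSS also held to 1 to 10 kb, and all peaks counted, the ratio at 6 to 10 gene starts was 1.03 (0.938 to 1.14), and it was 1.06 (0.929 to 1.21) at 3 to 5 gene starts and 1.04 (0.896 to 1.20) at 11 to 20. These intervals at 1 to 10 kb include 1, and the stronger peaks were not counted separately there.

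Gene-poor neighbourhoods differed. With 0 to 2 gene starts within 250 kb, short-gene introns held 46.9 summits per Mb, from 104 summits, against 18.9 in long-gene introns, a ratio of 2.48 (2.02 to 3.01), and 12.1 in intergenic sequence, a ratio of 3.86 (3.15 to 4.69). Between 1 and 10 kb from a TSS the ratios there were 1.99 (1.59 to 2.47) and 3.04 (2.42 to 3.78). Only 4.20% of the eligible bases of short-gene introns lie in such neighbourhoods.

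Against intergenic sequence the order was the other way at 6 to 20 gene starts. At 11 to 20 gene starts short-gene introns held 53.8 summits per Mb and intergenic sequence 60.1, a ratio of 0.895 (0.830 to 0.965), and at 6 to 10 the ratio was 0.912 (0.845 to 0.983). Above 20 gene starts it was 0.981 (0.873 to 1.10), an interval that includes 1. Among peaks above the median signal these ratios were 0.766 (0.694 to 0.845) and 0.822 (0.744 to 0.907). The order rests on the masking rule. With masked bases and masked summits kept, the ratios were 1.16 (1.09 to 1.24) and 1.14 (1.07 to 1.21). The comparison with intergenic sequence at 6 to 20 gene starts therefore has no direction that holds under both treatments of repeats, while the ratios of 3.86 and 4.58 in gene-poor neighbourhoods are on the same side under both.

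**Figure D3:**
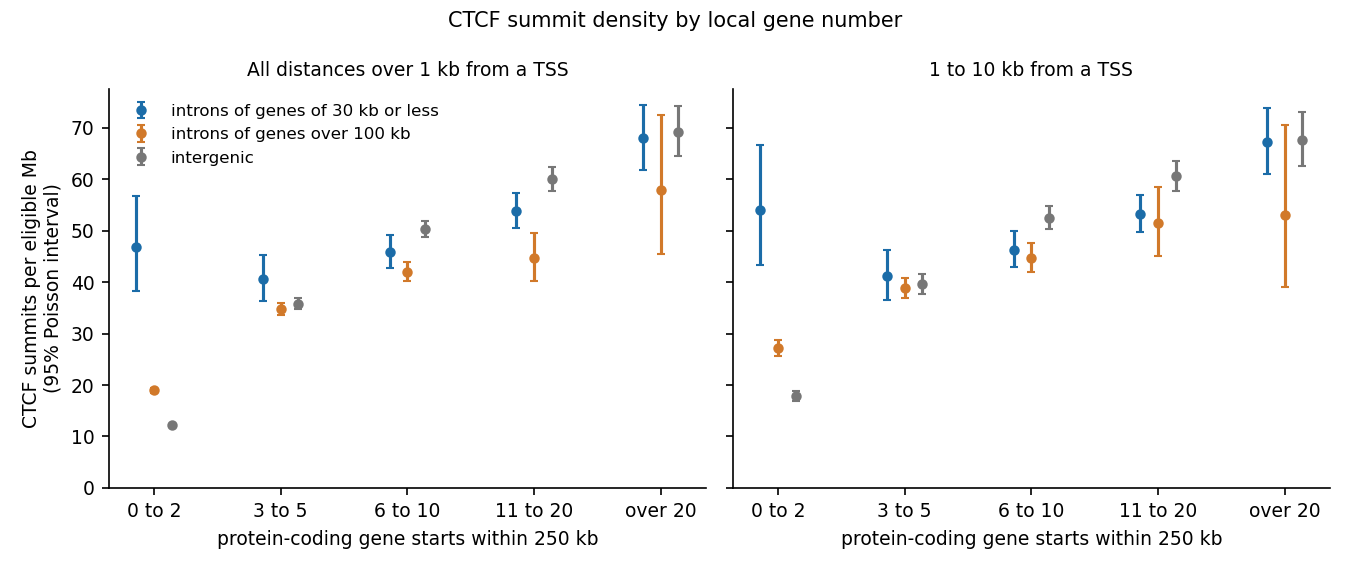
CTCF summits per Mb of eligible, unmasked sequence (y, with 95% Poisson intervals) by the number of protein-coding gene starts within 250 kb (x), at all TSS distances over 1 kb (left) and at 1 to 10 kb (right). Introns of short genes (blue) stand above both other classes at 0 to 2 gene starts, with 46.9 against 18.9 and 12.1 in the left panel, and with intervals that overlap those of introns of genes over 100 kb (orange) elsewhere in the right panel.

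Along the gene the density differed little between quintiles. From the 5′ to the 3′ end the quintiles of the host's length held 53.3, 48.0, 47.6, 52.2 and 54.9 summits per eligible Mb, with intervals that overlap. First introns held 52.3 per Mb and later introns 49.03, a ratio of 1.07 (0.980 to 1.16). With summits over 500 bases from a TSS allowed, that ratio was 1.13 (1.05 to 1.22), an interval above 1. Strong peaks ran the other way: among those above the median signal the ratio of first to later introns was 0.811 (0.720 to 0.912). Close to exon edges, at under 50 bases, there were 46.6 summits per Mb (39.0 to 55.3), and at 1000 bases or more there were 52.0 (49.1 to 55.0), with intervals that overlap.

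Counted by the longest coding transcript, 2539 members lay in a numbered intron and 131 in sequence that this transcript does not span. The median intron was 3848 bases long, the median distance to the nearer exon was 925 bases, and 48.4% lay nearer to the exon upstream. There were 131 members within 50 bases of an exon edge, and 117 lay in the only intron of the transcript. The hosts had a median length of 19.2 kb over the members, and 30 members had more than 1 host.

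The motifs of the members showed little preference for the strand of the gene. Of the 1963 with a host on 1 strand only, 946 (48.2%, 46.0 to 50.4) pointed along transcription. In first introns 45.0% did (40.7 to 49.4) and in later introns 50.2% (47.5 to 52.9). By quintiles of the gene the sense share was 42.5% (36.7 to 48.5) at the 5′ end, then 45.7%, 48.2%, 52.5% and 50.5%. These are several of the splits that were looked at, and the intervals are not adjusted for their number. With masked summits kept the share over all members was 51.7%, on the other side of an even split, and the shares by intron and quintile were not computed with them.

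**Figure D4:**
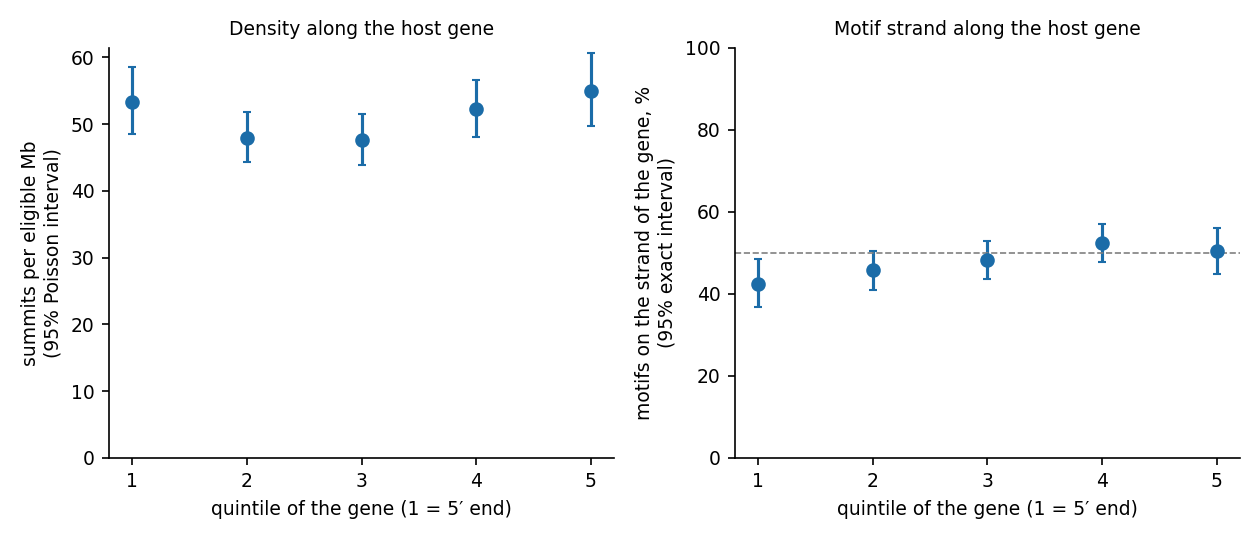
Density of intronic summits (left, summits per eligible Mb) and share of motifs on the strand of the gene (right, percent, dashed line at 50) in quintiles of the host from its 5′ end, with 95% exact intervals. The density stays between 47.6 and 54.9, and the sense share runs from 42.5% in the first quintile to 52.5% in the fourth.

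Few short genes hosted such a peak. Of 13469 protein-coding genes of 30 kb or less 10396 had eligible bases, and 2074 of these (19.9%) were hosts. Hosting rose with the room available, from 4.98% of genes with up to 2 kb of eligible sequence to 14.4% at 2 to 5 kb, 28.3% at 5 to 10 kb and 46.2% above 10 kb. Most hosts, 1585, had 1 member, 381 had 2, 81 had 3 and 27 had 4 or more. Members that were alone in their gene had a median signal of 119, and those in genes with 3 or more had one of 83.5.

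Bcl6, a transcriptional repressor best known from germinal centre B cells, had the most, 7 members. Of these 6 lay in intron 1, within 4.38 kb, and the other in the last intron. From the 5′ end of the gene their signals were 217, 492, 135, 180, 296 and 51.1 in intron 1 and 146 in intron 9. In replicate 1 the same peaks had 112, 242, 64.0, 76.0, 146, 22.7 and 77.6, and in replicate 2 they had 105, 253, 70.7, 107, 155, 28.9 and 68.2. Those of 180 and 296 are 2 summits of 1 listed interval. The order of the strongest, 492 and then 296, was the same in both replicates. The motifs of the 6 members that had one are shown from the 5′ end of the gene, since 5 of them share a direction. The gene is read from the minus strand.
Bcl6 (chr16:23985498-23985526, plus strand): tttacTCACCAAGGGGTGGCGCTGccgca
Bcl6 (chr16:23984355-23984383, plus strand): gtgacCTACCACTAGGTGGCGGACtcagt
Bcl6 (chr16:23983477-23983505, plus strand): tgaggACGCCACTAGAGGCCGCCAgtgcg
Bcl6 (chr16:23982420-23982448, plus strand): tctgtCTAACGCTAGAGGGAGCTCtccat
Bcl6 (chr16:23981136-23981164, minus strand): ccagcCGATCGCCAGGGGGTGGGCggtcc
Bcl6 (chr16:23967496-23967524, plus strand): tggggAGGCCACAAGAGGGAGCTGaatcc
The 5 on the plus strand point against transcription, and the weakest peak is the 1 that points along it.

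Card10, a scaffold of NF-kB signalling, had 6 members over 14.5 kb with signals from 15.1 to 326, and all 4 of its motifs pointed along transcription. Mxra7 had 5 members with signals from 29.8 to 413, of which 3 had a motif. Cep68, a centrosomal protein gene, had 5, none stronger than 71.9, and 3 with a motif. C1qtnf1, which encodes a secreted C1q-like protein and held the strongest peak among the genes with 4 members, had 4, of which 1 reached 530 and the others 18.8 to 83.5, and both of its motifs pointed along transcription. In each of these genes except Cep68 a single peak stood well above the rest.

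Neighbouring members of 1 gene gave 344 pairs of motifs in 290 genes. Of the pairs 21.2% (17.0 to 25.9) converged, 24.4% (19.97 to 29.3) diverged and 54.4% (48.9 to 59.7) pointed the same way. The median distances were 5.17, 3.70 and 3.59 kb. Convergent pairs, the order found at loop anchors, were thus not more common than divergent ones. The strongest pair of each order is shown, to let the orders be compared, with the site of the lower coordinate first.
Coq7 (chr7:118518053-118518081, plus strand): agcagTGAGCAGCAGTGGGCAGCAgtgag
Coq7 (chr7:118518889-118518917, minus strand): tccggTGGCCTCCAGAGGGCGCGCgcgaa
Nkd2 (chr13:73822392-73822420, minus strand): tgagcCTTCCAGCAGGGGGAGCTGgcagt
Nkd2 (chr13:73831713-73831741, plus strand): cacaaTCACCACTAGGTGGCAGTAgtgag
Dnajb12 (chr10:59893173-59893201, plus strand): gcctaGGGACACCAGAGGGAGCCAcactc
Dnajb12 (chr10:59894970-59894998, plus strand): tccctCGGCCAGCAGGGGGCAGAGttggt
In Coq7, an enzyme gene of ubiquinone synthesis, the summits of the convergent pair lay 0.854 kb apart in intron 5, with signals of 429 and 575. In Nkd2, a Wnt pathway antagonist, the summits of the divergent pair lay 9.33 kb apart with signals of 442 and 449. In Dnajb12, a co-chaperone of the endoplasmic reticulum, the summits of the tandem pair lay 1.79 kb apart with signals of 544 and 508. The replicates gave the Coq7 peaks 219 and 283 in replicate 1 and 212 and 294 in replicate 2, so the second site was the stronger in both.

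Genes with an intronic peak more often had a peak at their promoter too. Of the 2074 hosts 53.6% (51.4 to 55.8) had an optimal summit within 1 kb of one of their own TSSs, against 39.8% (38.8 to 40.9) of the 8322 short genes with eligible bases and no member, and 42.6% of both together. The gap was there at each eligible length, with 52.8% against 35.0% up to 2 kb, 56.2% against 39.9% at 2 to 5 kb, 52.2% against 44.8% at 5 to 10 kb and 53.8% against 45.7% above. By gene starts within 250 kb it was 50.2% against 41.2% at 3 to 5, 54.7% against 38.5% at 6 to 10, 52.7% against 38.3% at 11 to 20 and 58.2% against 43.0% above 20. At 0 to 2 gene starts, with 80 hosts, it was 42.5% (31.5 to 54.1) against 41.7% (35.4 to 48.2). Taking intronic and promoter peaks above the median signal only, the shares were 29.4% (26.9 to 31.9) and 22.6% (21.7 to 23.5).

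**Figure D5:**
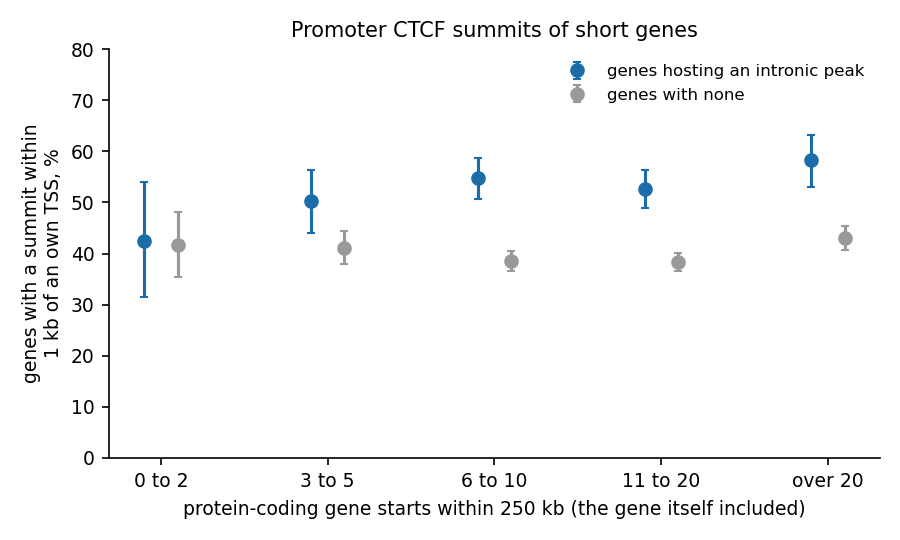
Share of short genes with a CTCF summit within 1 kb of an own TSS (y, percent, with 95% exact intervals) by the number of protein-coding gene starts within 250 kb (x), for genes that host an intronic peak (blue) and genes that do not (grey). The shares are 42.5% and 41.7% at 0 to 2 gene starts and 58.2% and 43.0% above 20.

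In 623 cases a member with a motif and a promoter peak of its host with a motif could be read as a pair. They converged in 26.2% (22.8 to 29.8), diverged in 22.8% (19.6 to 26.3), both ran along the gene in 26.0% and both against it in 25.04%. The 4 orders were nearly equal. The intronic peak was the stronger in 52.5% (48.5 to 56.5) of these pairs.

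Members sat close to other peaks. Another optimal summit lay under 5 kb away for 58.2% (56.3 to 60.1) of them, against 48.2% of all optimal peaks, 38.1% of those in long-gene introns and 42.8% of intergenic ones. The median distance to the nearest summit was 3.86 kb. Members had a median of 11 protein-coding gene starts within 250 kb and long-gene intronic peaks a median of 3, and the part of local gene number in this closeness was not tested.

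Genes of the intestinal epithelium were among the hosts. Of the 12 transcription factor genes of the epithelium that are short enough and have eligible bases, 4 were hosts, among them Cdx1, Creb3l3 and Sox9, with 8 members in all and with no promoter summit at any of the 4. That is 33.3%, beside 19.9% of all eligible short genes, and no test was made over a list. The 19.9% does not allow for eligible length, with which hosting rose. The median eligible length of the lists ran from 0.631 kb to 12.046 kb, and it was 4.18 kb in this one. The shares of the lists are therefore not comparable with each other or with the 19.9%. Cdx1, which patterns the gut as a homeobox factor, held a peak in intron 1 with a signal of 251 (121 in replicate 1 and 129 in replicate 2). Creb3l3, a membrane-bound factor of lipid metabolism, had 197 at its strongest of 3 members (104 and 91.3).

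Of the enterocyte genes of brush border and lipid handling 1 of 12 was a host (8.33%). This was Mogat2, an enzyme that rebuilds dietary fat, with 3 members and a strongest signal of 280 (141 and 140). Of the secretory lineage genes 3 of 15 were hosts (20%). Clca1, a goblet cell gene, had 466 (231 and 235), Reg4, a secreted lectin, had 429 (211 and 219), and Agr2, which folds mucin in goblet cells, had 275 (139 and 136). Of the crypt stem cell and Wnt genes 2 of 8 were hosts (25%). Msi1, an RNA-binding protein, had 372 (191 and 181), and Ccnd1, the cyclin that drives entry into the cell cycle, had 246 (111 and 137). Both had a promoter summit as well.

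Of the smooth muscle and mesenchyme genes 4 of 11 were hosts (36.4%): Wnt5a, Acta2, Col1a1 and Grem1. Wnt5a, a morphogen of the gut mesenchyme, had 449 (207 and 243), Acta2, smooth muscle actin, had 250 (115 and 136), and Col1a1, a collagen chain, had 178 (90.3 and 87.1). Of neuron and glia genes 1 of 12 was a host, or 8.33% (Uchl1 at 35.3, with 13.9 and 21.2). Of blood and immune genes 1 of 10 was, or 10% (Tbx21, a T cell factor, at 345, with 186 and 159). Of ribosomal protein genes 1 of 31 was (3.23%), Rpl22 at 169 (85.8 and 83.3). The median gene there had 0.631 kb of eligible sequence, the least of the 9 lists.

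Of the 7 genes of cohesin and of CTCF itself that could host a member 2 did (28.6%). The median gene there had 12.046 kb of eligible sequence, the most of the lists. Of all short genes with above 10 kb of eligible sequence 46.2% were hosts, so the share of this list was not high for its length. Ctcfl, the germline paralogue of CTCF, had 2 members, the stronger at 378 (180 and 199). Cdca5, which encodes sororin, a protector of cohesin, had 59.3 (35.1 and 23.5) and was the only one with no motif called of the 17 peaks that the naming rule takes from the lists, since its best score of 11.04 fell just under the threshold of 11.09. Of the other 16 motifs 10 pointed against transcription. Those in Ccnd1 (score 11.16, threshold 11.09) and Cdx1 (score 11.33, threshold 11.16) passed only narrowly, and both are among the 10.

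Some of these sites lie beside exons, and 3 are printed as examples of a motif close to an exon.
Agr2 (chr12:35995995-35996023, minus strand): gatagTCATCACTAGATGGCGCTCatgag
Col1a1 (chr11:94942482-94942510, minus strand): atgttTCTCCAGAAGGGGGCACCCtggag
Tbx21 (chr11:97101877-97101905, plus strand): tgagtAATCCACCAGGGGGCGCCCtgtct
The Agr2 summit lay in intron 3, which is 116 bases long, at 49 bases from the upstream exon and 68 from the downstream one. The Col1a1 summit lay in intron 19 of 50, which is 119 bases long, at 50 and 70 bases from its exons. Tbx21 is added as a further case near an exon, with its summit 41 bases from the upstream exon of a 343-base intron. These 3 were picked for display after their values were seen.

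The peaks next to the limits of the rule are given as a description. The longest hosts were those of Htr3b (29.983 kb, signal 20.9), Bmp3 (29.982 kb, 187) and Slc29a4 (29.979 kb, 51.2), and just outside were Mybl2 (30.002 kb, 28.5), Eif2ak2 (30.01 kb, 21.6) and Capsl (30.011 kb, 74.96). The 260 peaks in hosts of 28 to 30 kb had a median signal of 92.7, and the 256 in genes of 30 to 32 kb had one of 98.4. Nearest to a TSS were the members in Hrk (1001 bases, 75.4), Lgals12 (1001 bases, 57.8) and Btnl1 (1002 bases, 166), and just outside were peaks in Cip2a (997 bases, 124), Gimd1 (995 bases, 77.5) and Ndufab1 (995 bases, 158). The 377 members over 1000 and up to 1500 bases from a TSS had a median of 99.05, with a motif in 71.1%, and the 543 peaks over 500 and up to 1000 bases had one of 83.2, with a motif in 63.5%.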

How the data were processed

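CTCF peaks were analysed in 1 group of 2 replicates. The authors deposited peak lists on mm10 for each replicate and, per the descriptions deposited with the files, lists filtered by IDR from both. The signal of a peak is the value the authors deposited, with its normalization not stated, and the summit is the start plus the deposited offset. The aligner and the peak caller with their versions, the threshold on IDR and any use of a control were not given in the sources used here.

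Members and gene lists were chosen with earlier results of these data known. Summits were placed on the RefSeq copy of the mm10 sequence, whose lower-case bases were taken as masked, with GENCODE M21. Of the optimal intervals 77 are listed more than once, with different summits, and 6 members lie in them. Eligible bases are those where the rule allows a summit. Tests between groups were not possible, so shares, densities and ratios carry 95% exact intervals.

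The CTCF matrix (19 bases) was trained from a 13-base consensus in 6 rounds with a pseudocount of 1 on the 5000 strongest peaks that are no members, on even chromosomes for scoring odd ones and the reverse. A motif was called within 100 bases of the summit at the score that 5% of training flanks reach. A replicate peak was matched within 100 bases.

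Named genes are the hosts of the 12 strongest members, the 5 genes with the most members (ties going to the strongest peak), the 3 strongest hosts of each list, the 3 strongest members without a motif, the strongest pair of each motif order, and the 3 peaks nearest to either side of the length and TSS limits. Of what this rule takes, 2 genes and 1 further sequence are not reported here. Sequences are from the RefSeq copy of mm10. Alternatives were another list, signal cut, replicate, gene length, TSS distance, masking and motif setting. The procedures were tested on simulated data. Python 3.11.15 with numpy 2.4.6, pandas 2.3.3, scipy 1.17.1, numba 0.67.0 and matplotlib 3.10.9 was used.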

Additional observations from a re-analysis of the deposited data

How the results depend on the processing

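Peaks of the optimal list above the median signal gave 1556 members, a motif share of 90.2%, a density ratio of short-gene to long-gene introns of 2.18, a ratio of first to later introns of 0.811, a host promoter share of 29.4%, a ratio of median signals of 1.20 and a ratio to intergenic sequence at 11 to 20 gene starts of 0.766. With masked summits kept these were 79.2% for the motif, 51.7% for the sense share, 2.03 for the density ratio, 1.26 for the signal ratio and 1.16 for the ratio to intergenic sequence at 11 to 20 gene starts, which reversed; the cause was not tested. That last ratio was chosen after the densities had been seen. A gene limit of 20 kb gave 1420 members, a host promoter share of 50.1% and a signal ratio of 1.53. A limit of 50 kb gave 4786 members, a density ratio of 1.79 and a signal ratio of 1.38. A TSS distance over 500 bases gave 72.1% with a motif, 59.5% of hosts with a promoter summit and a signal ratio of 1.33, and one over 2 kb gave a signal ratio of 1.51. The conservative list gave a motif share of 75.5%, a threshold at 1% of flanks 43.7%, training on 1000 peaks 71.05%, and each replicate alone 73.3 to 75.5%. A promoter window of 500 bases gave 45.3% of hosts. The density ratio to long-gene introns stayed above 1, and hosts had promoter summits more often than other short genes, under each of these settings. No paired analysis was possible because there is only 1 group.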

Other observations

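Short words of other factors were counted on both strands within 100 bases of the members' summits, beside windows 1 kb away. The AP-1 word TGANTCA was found in 5.99% of members (5.12 to 6.96) and 5.28% of their flanks, and in 5.62% of all optimal peaks. The CDX word TTTATNG was found in 6.93% (5.99 to 7.96) of members, 7.62% of flanks and 6.80% of all optimal peaks. The GATA word AGATAAG was found in 2.10% of members, 2.28% of flanks and 1.81% of all optimal peaks. The HNF4 word CAAAGTCCA was found in 7 of 2670 members (0.262%, 0.105 to 0.539), 0.375% of flanks and 0.373% of all optimal peaks. All these shares were near those of the flanks.

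The 1971 motifs of the members were 1935 different 19-base sites, and 27 of these sites occurred in 2 or more members. The most frequent, AGGCCAGAAGAGGGCACCA, occurred in 5 members, in Gm49384, 2610507B11Rik, Nutf2, Rrm2 and Plekhb2, with signals of 78.4, 85.4, 104.7, 164 and 409. These peaks share the whole motif and still differed in signal. Flanking sequence and its origin were not tested.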
